A study of Mus musculus with 96 samples.

Results

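The genes considered here take up, store and export iron: Slc11a2, Slc40a1, Tfrc, Trf, Fth1, Ftl1, Cp, Hmox1, Slc39a8 and Slc39a14. They were chosen by symbol among the 54532 genes of the deposited table, where all 10 were found, and all 10 passed the filter on low values (at least 1 TPM, a length-corrected abundance with the same total in every library, in at least 3 mice). Transcript abundance was measured by RNA sequencing from very small inputs in glomeruli and in 14 kinds of tubule segment, dissected by hand from kidneys of C57BL/6 males aged 6 to 8 weeks. No group carried a transgene or a treatment in the labels, and chow and water were freely available. The question was how each transcript is distributed along the nephron.

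After the glomerulus came 3 proximal groups: the initial convoluted portion (PTS1), the straight portion in the medullary rays (PTS2) and the terminal portion in the outer stripe (PTS3). The groups of thin limb were the short-loop descending limb (DTL1), the long-loop descending limb in the outer medulla (DTL2) and in the inner medulla (DTL3), and the ascending thin limb (ATL). The thick ascending limb was taken from the medulla (MTAL) and the cortex (CTAL). Beyond it lay DCT (distal convoluted tubule), CNT (connecting tubule) and 3 parts of the collecting duct, cortical (CCD), outer medullary (OMCD) and inner medullary (IMCD). PTS2, CTAL and CCD were each sampled in 5 mice, ATL and OMCD in 4 and the other 10 groups in 3, making 53 mice and 93 samples. Up to 3 pieces of the same mouse were averaged, so a value below is that of a mouse.

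Iron circulates bound to transferrin (Trf), enters cells with the transferrin receptor (Tfrc) and leaves the endosome through DMT1 (Slc11a2). ZIP8 (Slc39a8) and ZIP14 (Slc39a14) are plasma membrane carriers of zinc, manganese and iron that is not bound to transferrin. Inside the cell iron is kept in ferritin shells built of heavy (Fth1) and light (Ftl1) chains, and heme oxygenase 1 (Hmox1) frees it from heme. Ferroportin (Slc40a1) is the known cellular iron exporter, and the ferroxidase ceruloplasmin (Cp) oxidises the iron that leaves. The proximal tubule is known for reabsorbing filtered transferrin and iron.

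Several of these messages carry an iron-responsive element, a hairpin bound by iron regulatory proteins, which block translation when it lies in the 5′ UTR and stabilise the message when it lies in the 3′ UTR. The sites found are shown because they mark which of the genes hold a match to this hairpin. The control acts on translation or on message stability and is not itself measured by TPM. GENCODE M21 transcripts (GRCm38) were searched in the sense direction for a C, 5 bases, the loop CAGTGN and 5 bases able to pair with the 5 before the loop, G-T pairs allowed. A match was present in protein-coding transcripts of 4 of the 10 genes and of 294 of 21877 protein-coding genes (1.34%). The lines below give each site 5′ to 3′ with the loop in capitals and 5 flanking bases on each side of the hairpin.
Fth1 5′ UTR: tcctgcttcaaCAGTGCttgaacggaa
Ftl1 5′ UTR: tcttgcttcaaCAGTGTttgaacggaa
Slc40a1 5′ UTR: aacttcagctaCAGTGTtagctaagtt
Tfrc 3′ UTR, site 1: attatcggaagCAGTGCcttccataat
Tfrc 3′ UTR, site 2: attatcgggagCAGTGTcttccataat
Tfrc 3′ UTR, site 3: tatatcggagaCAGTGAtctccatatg
Tfrc 3′ UTR, site 4: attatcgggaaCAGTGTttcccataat

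The Fth1 site lies at chr19:9982733-9982759 on the plus strand and was held by 4 of the gene's 5 protein-coding transcripts. The Ftl1 site, in exon 1 at chr7:45459780-45459806 on the minus strand, was held by 1 of 2 transcripts, and the Slc40a1 site, in exon 1 at chr1:45925466-45925492 on the minus strand, by 1 of 4. The 4 Tfrc sites fall in exon 19 of 1 of its 3 transcripts, on the plus strand between chr16:32631220-32631246 and chr16:32631711-32631737. The other 6 genes, Slc11a2 among them, held no match, which says only that these letters are not in their annotated transcripts. Hairpins with a bulge within the 5 paired bases were outside the search, so the lack of a match does not place a gene outside this control. The deposited values are per gene, so transcripts with and without a site are not separated below.

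Segment markers were highest in groups of their own label, with lesser sums in some others. Thin limb markers were at 4120 TPM or more in the thin limbs and at 2685 TPM or less elsewhere. Distal convoluted markers were at 11522 TPM or more in DCT and at 1751 TPM or less elsewhere. Principal cell markers were at 11628 TPM or more from CNT to IMCD and at 916 TPM or less elsewhere. Intercalated cell markers were at 2419 TPM or more in CNT, CCD and OMCD and at 782 to 848 TPM in DCT. Summed proximal markers were at 11821 TPM or more in every proximal mouse, at 1049, 2297 and 4228 TPM in DTL1 mice 3, 5 and 1 (all 6 markers at 1 TPM or more in a mouse) and at 492 TPM or less in all other mice, and the part of proximal markers in the DTL1 values below was not tested. Thick limb markers were at 21454 TPM or more in MTAL and CTAL and at 2252 TPM or less elsewhere, and podocyte markers were at 7428 TPM or more in glomeruli and at 50.1 TPM or less elsewhere. Sums over 7 endothelial markers, all 7 of them at 1 TPM or more there, were high in glomeruli (5844 to 6123 TPM) and in the descending thin limbs (757 to 4275 TPM), against 597 TPM or less in the other groups, where Cdh5 stayed below 1 TPM in 6 groups, and their part in the thin limb and glomerular values below was not tested. Of 1459 odorant and vomeronasal receptor genes, which kidney is not known to use broadly, a mouse had up to 747 at 1 TPM or more in the descending thin limbs, 730 in glomeruli, 588 in ATL and 195 in OMCD, and at most 19 in the other groups. The ATL mice were uneven in this respect, since mice 2 and 3 had 23 and 15 such genes, but mice 4 and 6 had 517 and 588. In tissue pieces fewer cells of a type and less RNA per cell cannot be told apart.

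All 10 genes differed among the 15 groups (moderated F-test of limma on log2(TPM + 1), adjusted p below 0.05), as did 93.9% of the 33793 genes tested. Over all pairs of the 15 groups, 533 of the 1050 pairwise tests of these genes were called (limma, adjusted p below 0.05 and a log2 difference of at least 1), a share of 50.8%, against 27.9% over all genes. The share ran from 12.4% of pairs for Slc11a2 to 69.5% for Slc40a1 and for Cp. By level the genes spread widely. Fth1 was at 1996 to 16073 TPM and Ftl1 at 237 to 12917 TPM in every mouse, and Slc11a2 stayed between 13.3 and 65.2 TPM. Slc39a8, at the other end, was at 1 TPM or more in 30 of 53 mice and reached 400 TPM.

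**Figure D1:**
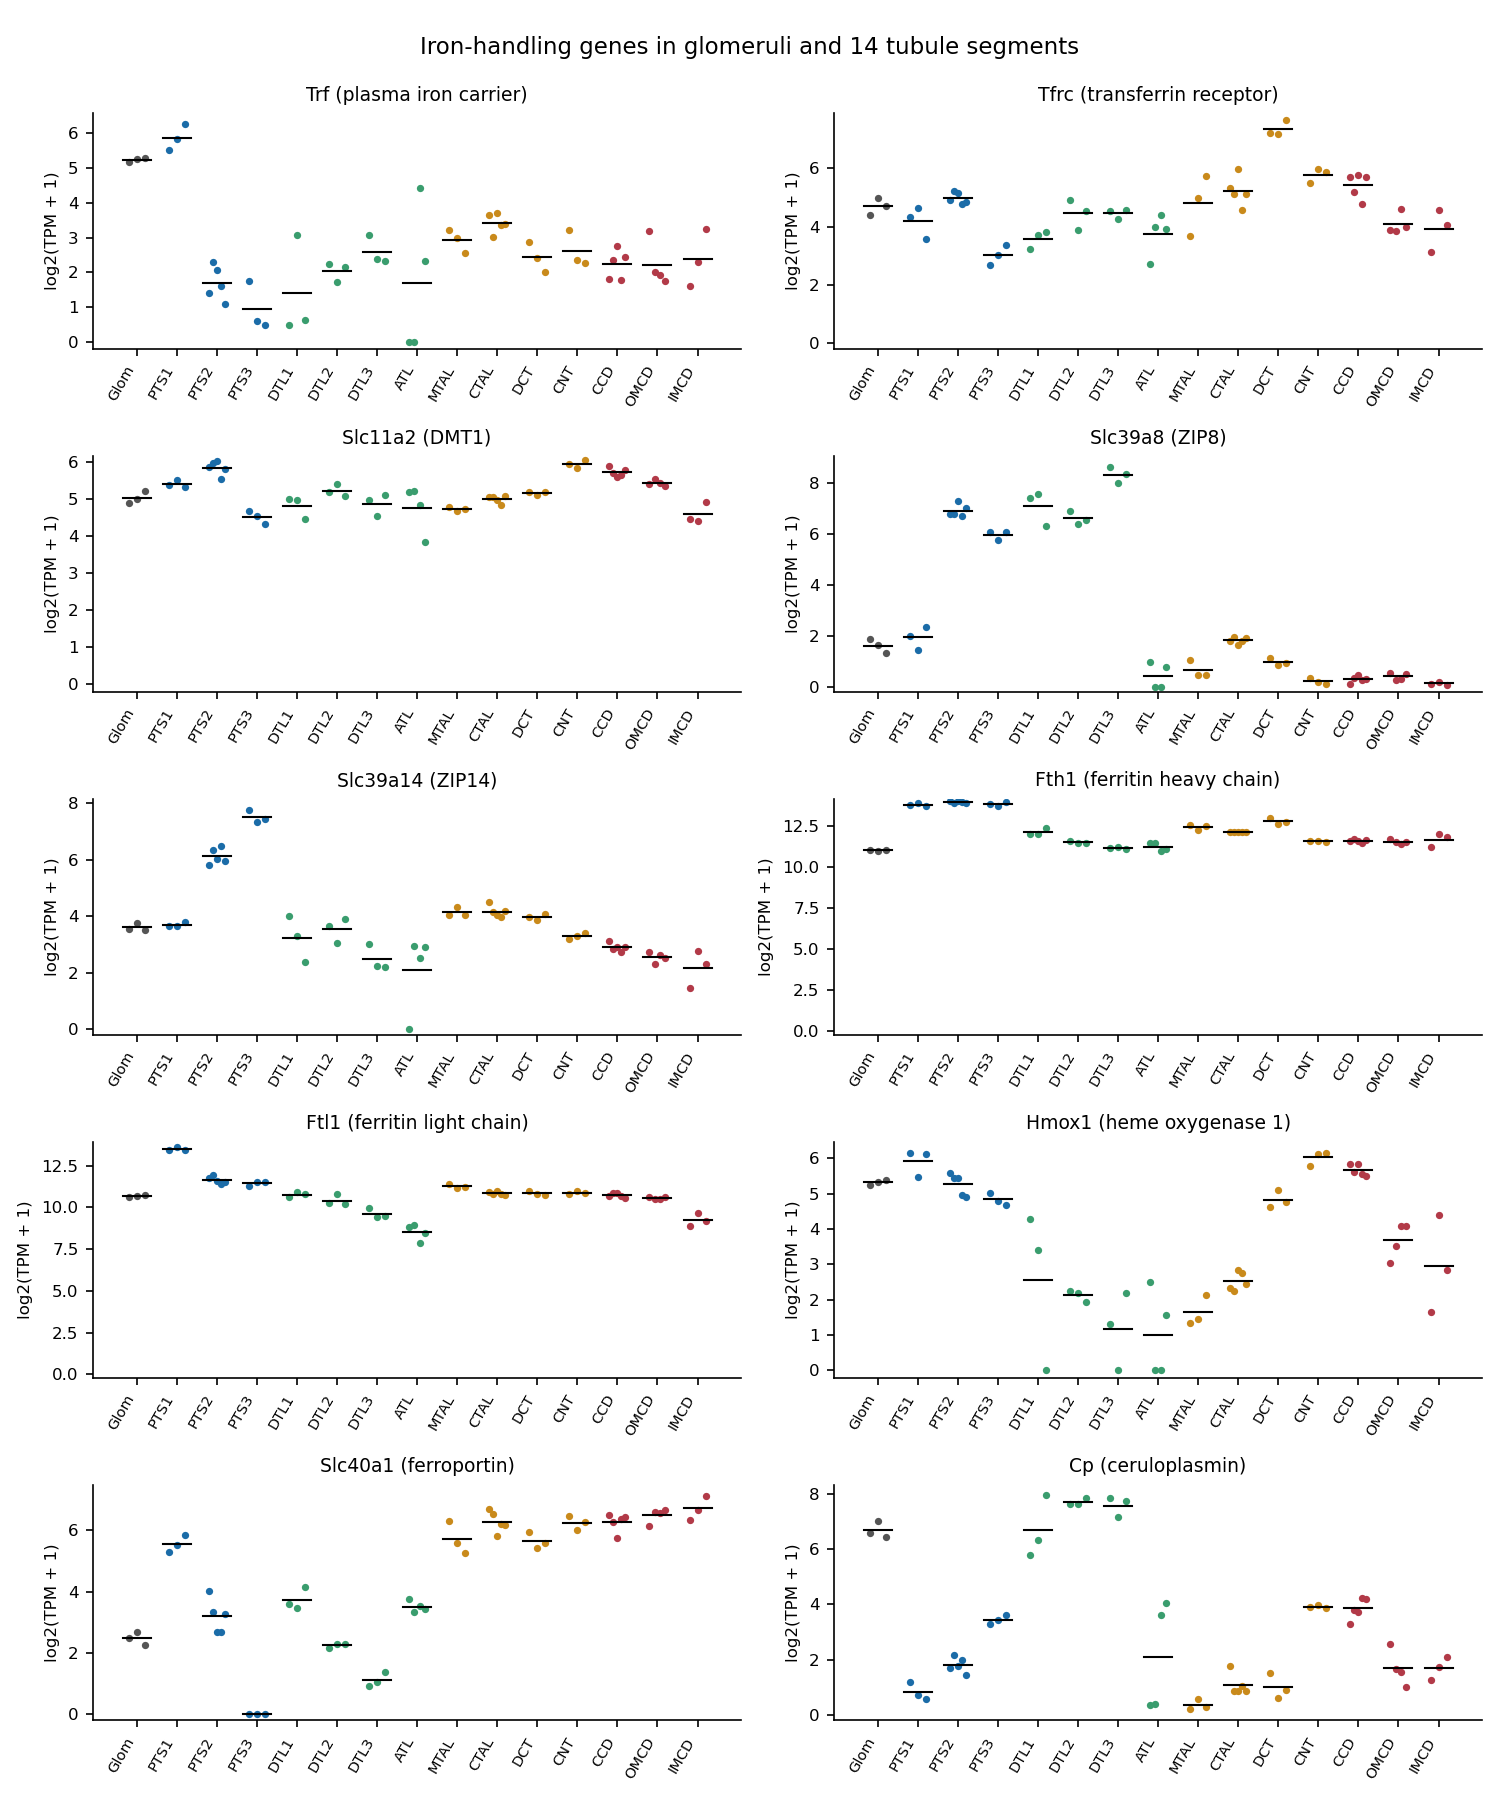
Abundance of the 10 genes as log2(TPM + 1) (vertical axis) in glomeruli (Glom) and 14 tubule segments (horizontal axis); each point is a mouse and each line the mean of the points in a group. Grey, blue, green, yellow and red mark glomerulus, proximal tubule, thin limbs, thick limb to connecting tubule, and collecting duct. Slc11a2 stays between 13.3 and 65.2 TPM throughout, while Slc40a1 is listed at 0 in all 3 PTS3 mice and Slc39a8 drops between DTL3 and ATL.

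Trf, the plasma iron carrier, was concentrated at the start of the nephron. The 3 glomerulus mice had 34.8, 37.0 and 38.4 TPM and the 3 PTS1 mice 44.6, 55.5 and 76.1 TPM. The 5 PTS2 mice had 1.12, 1.66, 2.03, 3.17 and 3.96 TPM. Every glomerulus and PTS1 mouse was above every mouse of the 13 later groups, where the highest values were 20.5 TPM in ATL mouse 4 and 12 TPM in a CTAL mouse. From PTS1 to PTS2 the level dropped by 4.18 ± 0.54 log2 units (SE, limma, adjusted p = 2.76e-08), the only call for Trf among 14 neighbouring pairs. PTS1 and glomerulus did not differ by the test (log2 difference of glomerulus minus PTS1 -0.62 ± 0.60, adjusted p = 0.345). Trf shares its strand and locus with the annotated gene Gm20425, so reads could be split between them. The ATL values were 0, 0, 20.5 and 4.04 TPM in mice 2, 3, 4 and 6, so Trf was detected there only in the mice with many receptor genes.

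Tfrc, the receptor that brings transferrin into the cell, peaked in the distal convoluted tubule. The 3 DCT mice had 143, 148 and 200 TPM. The CNT mice had 43.6, 58.2 and 61.8 TPM, and the CTAL mice 23, 33.5, 34.1, 39.1 and 62.6 TPM. No mouse of another group reached the DCT range, and the lowest group was PTS3 with 5.39, 7.17 and 9.31 TPM. DCT was called above CTAL (log2 difference of CTAL minus DCT -2.12 ± 0.35, limma, adjusted p = 9.14e-06) and above CNT (DCT minus CNT 1.57 ± 0.39, adjusted p = 0.00339). Against all 14 other groups together, tested as the largest of 14 one-sided p, DCT was highest by 1.57 ± 0.39 log2 units over CNT (limma, adjusted p = 0.0412), as were 0.210% of genes in DCT. That last call sat at the threshold: over the alternatives its adjusted p ran from 2.04e-04 to 0.387, and it was lost without any single DCT or CNT mouse (0.0863 to 0.387), without CTAL mouse 5 (0.0505), without glomerulus mouse 3 (0.0506), with a pseudocount of 0.1 (0.133) and with no filter (0.0693).

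Red cell precursors are rich in Tfrc, and the sum of 6 erythroid markers was uneven in CTAL. In ascending order of Tfrc, the 5 CTAL mice had sums of 0.660, 4.26, 27.1, 30.0 and 78.7 TPM, so both values put them in the same order. Glomeruli had sums of 194 to 555 TPM beside 19.9 to 30.6 TPM of Tfrc. In glomeruli and in CTAL, 5 of the 6 markers reached 1 TPM in a mouse, Slc4a1 staying below it. In MTAL, Tfrc ran from 11.9 to 52.1 TPM with sums of 0.0550 to 0.135 TPM. The part of red cell precursors in Tfrc was not tested. In DCT, where Tfrc was highest, the 4 globin genes and Alas2 were below 1 TPM in every mouse, and the sum (76.7 to 96.3 TPM) was nearly all Slc4a1, which intercalated cells also express. DCT stayed called above CTAL without each CTAL mouse in turn, and in every other alternative tried (CTAL minus DCT -2.31 to -1.96).

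Within the proximal tubule Tfrc fell from PTS2 (26.1, 27.4, 29.1, 34.6 and 36.2 TPM) to PTS3, by 1.96 ± 0.35 log2 units (limma, adjusted p = 3.18e-05). Between the cortical and outer medullary collecting duct it was higher in CCD (43.5 ± 11.9 TPM, SD, n = 5) than in OMCD (16.3 ± 4.60 TPM, n = 4), by 1.35 ± 0.32 log2 units (limma, adjusted p = 0.00146). The rise from ATL to MTAL (ATL minus MTAL -1.03 ± 0.36, limma, adjusted p = 0.0171) rested on wide groups, with MTAL mice at 11.9, 30.3 and 52.1 TPM. It was not called without MTAL mouse 2 (-0.94, adjusted p = 0.0639), MTAL mouse 3 (-0.56, adjusted p = 0.248) or ATL mouse 2 (-0.68, adjusted p = 0.105), nor with a pseudocount of 5 (-0.86, adjusted p = 0.0189). DTL2 exceeded PTS3 (PTS3 minus DTL2 -1.42 ± 0.39, limma, adjusted p = 0.00180), but not after rescaling by median ratios (-0.29, adjusted p = 0.553) or quantile normalization (-0.15, adjusted p = 0.823).

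Slc11a2, the endosomal and apical iron importer DMT1, varied least of the 10 by its range. CNT had the highest mean (56.1, 60 and 65.2 TPM) and PTS2 the next (45.8, 54.8, 57.5, 61.6 and 63.6 TPM), and these ranges overlapped. The lowest means were those of PTS3 (19.0, 22.4 and 24.5 TPM) and IMCD (20.3, 21 and 29.2 TPM). Its 1 call between neighbouring groups was the fall from PTS2 to PTS3 by 1.37 ± 0.17 log2 units (limma, adjusted p = 6.13e-08), where no mouse of the groups overlapped. Quantile normalization left it at 0.87, under the 1 log2 unit required. The decline from OMCD (42.0 ± 2.49 TPM, n = 4) to IMCD had an adjusted p of 2.27e-04 (limma) with a log2 difference of 0.85, also under that size. Slc11a2 overlaps the annotated gene Gm5475 on the opposite strand, and counting by strand is not stated in the sources used here.

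The 2 ZIP carriers were both abundant in PTS2 and PTS3, and outside these segments their ranges differed. Slc39a8 was abundant from PTS2 to the end of the descending limb: 103 to 158 TPM in the 5 PTS2 mice, 54.2, 66.0 and 66.2 TPM in PTS3, and 79.1, 169 and 190 TPM in DTL1. DTL2 had 83.3, 92.7 and 121 TPM and DTL3 255, 327 and 400 TPM. In PTS1, one segment upstream, the mice had 1.72, 3.00 and 4.15 TPM, and in ATL, one segment downstream, 0.950, 0, 0 and 0.730 TPM. No mouse outside the 5 groups from PTS2 to DTL3 exceeded 4.15 TPM, and no mouse inside them was below 54.2 TPM.

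Both edges of the Slc39a8 territory were called with large differences. PTS1 was lower than PTS2 (PTS1 minus PTS2 -4.98 ± 0.22, limma, adjusted p = 5.53e-23), and DTL3 was higher than ATL by 7.90 ± 0.23 log2 units (limma, adjusted p = 2.42e-29). Within the descending limb DTL3 exceeded DTL2 (DTL2 minus DTL3 -1.76 ± 0.25, limma, adjusted p = 4.03e-07). DTL3 was also highest of all 15 groups, by 1.23 ± 0.25 log2 units over DTL1 (limma, adjusted p = 0.00294), as were 0.257% of genes in DTL3. The margin shrank to 0.21 after rescaling by median ratios and to 0.85 without DTL1 mouse 5, and in both the call was lost (adjusted p = 1.0 and 0.116), as it was with a pseudocount of 0.1 (1.24, adjusted p = 1.0).

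Whether Slc39a8 differed between PTS3 and DTL1 turned on scaling. The log2 difference of PTS3 minus DTL1 was -1.13 ± 0.25 (limma, adjusted p = 7.47e-05), with the median gene at -1.33 in the same comparison. After rescaling by median ratios it was 0.24 (adjusted p = 0.334), the opposite sign, and after quantile normalization -0.61 (adjusted p = 0.0441). Without DTL1 mouse 1 or 3 it was -0.97 or -0.89, under the required size. The rise from MTAL (0.370 to 1.06 TPM, n = 3) to CTAL (2.12 to 2.85 TPM, n = 5) was between low levels. Its log2 difference of MTAL minus CTAL, -1.18 ± 0.22 (limma, adjusted p = 1.84e-04), shrank to -0.43 with a pseudocount of 5 and to -0.92 after quantile normalization. The annotation places 4933401H06Rik on the opposite strand over Slc39a8, and Gm43428 and Gm43429 on the same strand.

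Slc39a14, the other carrier, was a transcript of the straight proximal tubule. The PTS3 mice had 161, 174 and 218 TPM and the PTS2 mice 55.7, 61.8, 65.0, 80.3 and 88.2 TPM. PTS1 had 11.5, 11.6 and 12.9 TPM, and no mouse outside PTS2 and PTS3 exceeded 21.5 TPM, a value of the CTAL. PTS1 was below PTS2 (PTS1 minus PTS2 -2.43 ± 0.35, limma, adjusted p = 3.49e-07) and PTS2 below PTS3 (PTS2 minus PTS3 -1.39 ± 0.35, adjusted p = 0.00361). The second call was lost with a pseudocount of 0.1 (-1.40, adjusted p = 0.146). From PTS3 the level dropped by 4.28 ± 0.39 log2 units to DTL1 and by 4.01 ± 0.39 to DTL2 (limma, adjusted p = 7.28e-13 and 6.18e-12). PTS3 was called above each of the 14 other groups in its own pairwise test, but the joint test for the highest group did not pass (limma, adjusted p = 0.0866).

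Within a mouse, the ratio of Slc39a8 to Slc39a14 in TPM described the exchange between the carriers. It was 0.244 ± 0.0879 in PTS1 (n = 3), 1.81 ± 0.522 in PTS2 (n = 5) and 0.339 ± 0.0377 in PTS3 (n = 3). In the descending limb the ratio was 17.1 ± 5.18 for DTL1 and 9.46 ± 2.46 for DTL2, and it reached 71.7 ± 17.1 for DTL3 (n = 3 each). From MTAL to IMCD no group mean exceeded 0.152, the value in CTAL (n = 5). Slc39a14 was thus the more abundant carrier in glomeruli, PTS1 and PTS3 and from MTAL onward, and Slc39a8 in every mouse of PTS2 and of the descending limb.

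The ferritin chains were the most abundant transcripts of the 10 genes. Fth1 had 13430, 13466 and 14697 TPM in PTS1, 15064 to 16073 TPM in the 5 PTS2 mice, and 13130, 14175 and 15560 TPM in PTS3. The next group was DCT with 6225, 6806 and 8029 TPM, and glomeruli were lowest with 2016, 2032 and 2096 TPM. All proximal mice were above all other mice, and the 3 proximal groups did not differ by the test (PTS1 minus PTS2 -0.17 ± 0.11, limma, adjusted p = 0.366, and PTS2 minus PTS3 0.13 ± 0.11, adjusted p = 0.888). Fth1 fell from PTS3 to DTL1 by 1.69 ± 0.12 and to DTL2 by 2.34 ± 0.12 log2 units (limma, adjusted p = 3.19e-16 and 6.98e-21). The step to DTL1 was 0.24 after quantile normalization (adjusted p = 0.0939).

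Beyond the thin limbs, Fth1 was called higher in MTAL than in ATL and higher in DCT than in CNT. ATL was below MTAL (ATL minus MTAL -1.19 ± 0.11, limma, adjusted p = 4.47e-12), although under the required size after quantile normalization (-0.37) or with ATL mice 2 and 3 alone (-0.99). DCT exceeded CNT by 1.22 ± 0.12 log2 units (limma, adjusted p = 7.52e-11), or 0.65 after quantile normalization. DCT also lay above CTAL in every mouse, with an adjusted p of 1.30e-05 (limma) but a log2 difference of CTAL minus DCT of -0.65, which is not a call. From CNT to IMCD the group means stayed between 2947 and 3290 TPM.

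Ftl1 did not follow its partner chain through the proximal tubule. The PTS1 mice had 10958, 10978 and 12917 TPM, against 2730, 2979, 3138, 3549 and 3962 TPM in PTS2. PTS3 had 2527, 2907 and 2983 TPM. No mouse of another group approached the PTS1 range, and PTS2 and PTS3 overlapped. The fall from PTS1 to PTS2 was 1.84 ± 0.16 log2 units (limma, adjusted p = 2.70e-13). PTS1 was highest of all 15 groups by the same margin over PTS2 (limma, adjusted p = 1.62e-12), as were 0.544% of genes in PTS1. This was the only highest-group call of the 10 genes that held in every alternative tried, with margins of 1.67 to 1.91.

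At the low end Ftl1 was scarcest in ATL, with 237, 350, 463 and 494 TPM, and in IMCD, with 472, 593 and 803 TPM. ATL was below MTAL by a wide step (ATL minus MTAL -2.73 ± 0.16, limma, adjusted p = 1.58e-18), and OMCD (1450 to 1559 TPM, n = 4) exceeded IMCD by 1.32 ± 0.16 log2 units (limma, adjusted p = 6.89e-09), or 0.99 after rescaling by median ratios. The steps from PTS3 to DTL2 (1.04 ± 0.17, limma, adjusted p = 1.94e-06) and from DTL3 to ATL (1.09 ± 0.16, adjusted p = 8.37e-07) sat close to the required size. The former was 0.94 or 0.97 without DTL2 mouse 3 or 1, fractionally under 1 without PTS3 mouse 3 and 0.49 after quantile normalization. The latter was 0.72 with ATL mice 2 and 3 alone, 0.87 without ATL mouse 4, 0.92 without DTL3 mouse 1, 0.77 after rescaling by median ratios and 0.99 with mouse number as a block.

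The balance of the chains therefore differed along the nephron. The ratio of Fth1 to Ftl1 in TPM was 1.20 ± 0.0511 in PTS1 (n = 3) and 1.25 ± 0.0282 in glomeruli (n = 3), and 4.84 ± 0.705 in PTS2 (n = 5) and 5.11 ± 0.554 in PTS3 (n = 3). It was largest in ATL (6.49 ± 1.32, n = 4) and IMCD (5.30 ± 0.579, n = 3), where Ftl1 was lowest. CNT, CCD and OMCD lay between 1.57 and 1.95. The PTS1 mice (1.14 to 1.23) did not overlap with the PTS2 mice (3.80 to 5.66). Both chains have many processed copies in the mouse genome, and reads could be split among near-identical copies. Ftl1-ps1, a copy in the table, was at 31.2 ± 4.02 TPM in PTS1 (n = 3) and at 6.93 TPM or less on average in the other groups.

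**Figure D2:**
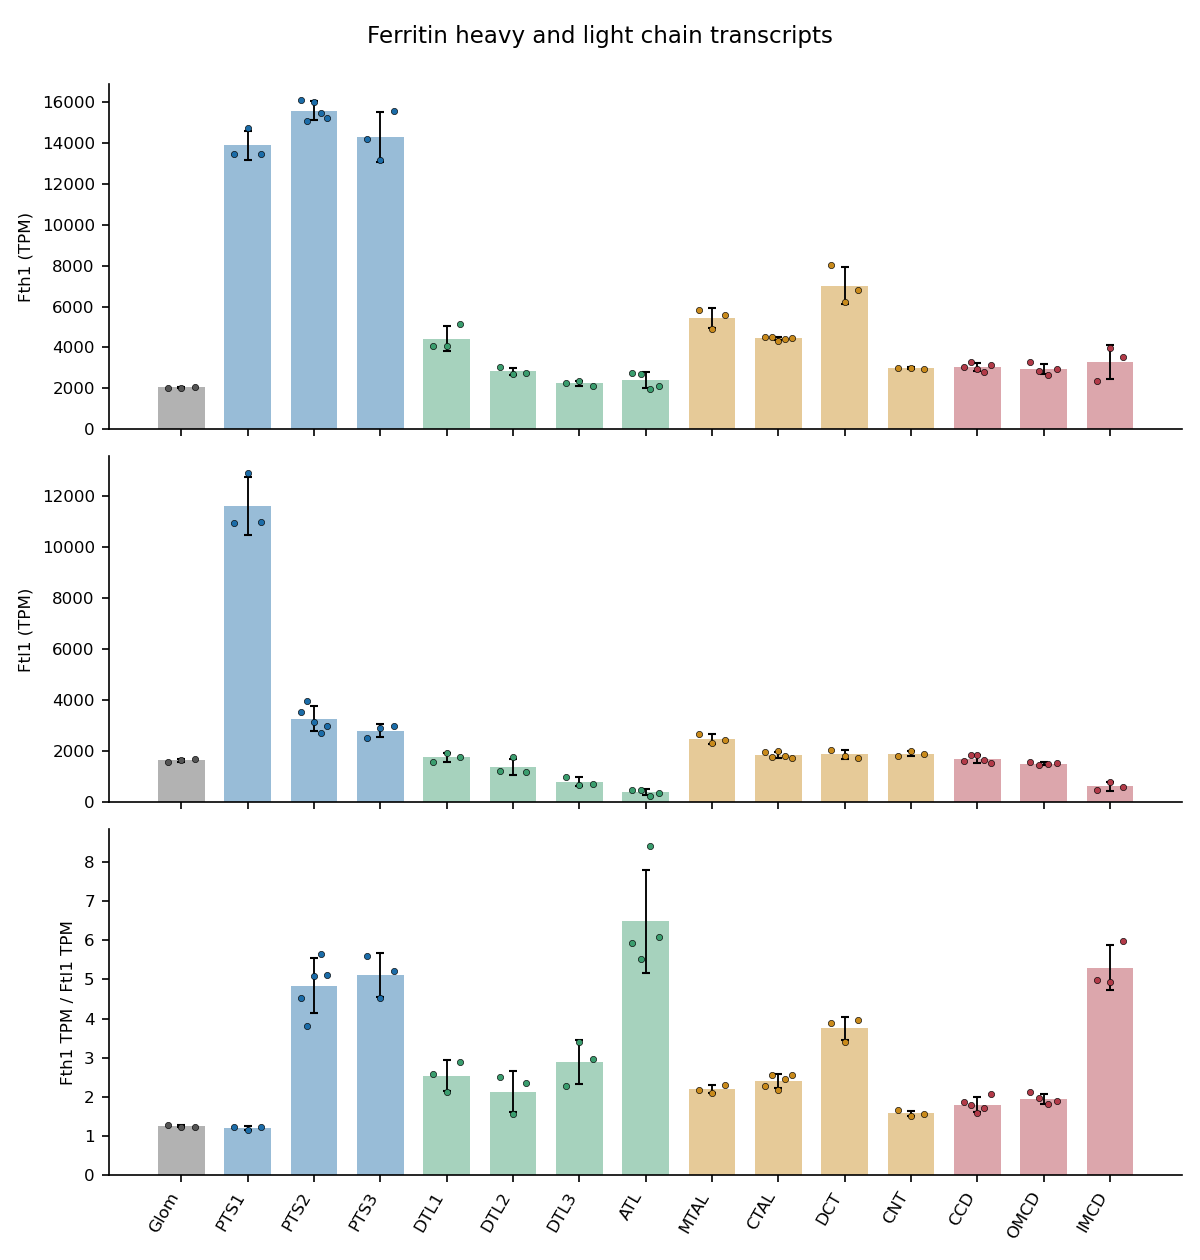
Ferritin heavy chain (Fth1, top) and light chain (Ftl1, middle) transcripts in TPM and the ratio of Fth1 to Ftl1 within each mouse (bottom), by segment. Bars are means over mice, error bars are the SD and points are mice, with zones coloured as grey glomerulus, blue proximal tubule, green thin limbs, yellow thick limb to connecting tubule and red collecting duct. Fth1 stays at 13130 TPM or more through all 3 proximal segments, while the Ftl1 mean is 11618 TPM in PTS1 and only 3272 TPM in PTS2.

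Hmox1, the inducible enzyme that opens heme and releases its iron, was high in glomeruli, the proximal tubule, DCT, CNT and CCD. The PTS1 mice had 43.1, 68.4 and 70.2 TPM and the CNT mice 54.5, 69.1 and 70.5 TPM, with CCD at 43.8 to 56.5 TPM (n = 5) and glomeruli at 37.0 to 41.1 TPM (n = 3). PTS2 had 28.8 to 47.3 TPM (n = 5) and PTS3 24.8, 26.8 and 31.6 TPM. CNT, the highest by mean, was not separated from glomerulus, PTS1, PTS2, PTS3, DCT or CCD. The loop of Henle was low: DTL2 had 2.83, 3.58 and 3.78 TPM, and ATL 4.67, 0, 0 and 1.94 TPM. Hmox1 was listed at 0 in 1 DTL1, 1 DTL3 and 2 ATL mice. It dropped from PTS3 to DTL2 by 2.79 ± 0.61 log2 units (limma, adjusted p = 1.58e-04) and rose from CTAL to DCT (CTAL minus DCT -2.30 ± 0.55, adjusted p = 0.00272).

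The DCT mice (23.7, 26.0 and 33.2 TPM) did not overlap with the CTAL mice (3.75 to 6.23 TPM). From CCD to OMCD (7.14, 10.4, 16.0 and 16.0 TPM) the level dropped by 2.0 ± 0.50 log2 units (limma, adjusted p = 0.00269). These calls at CTAL and at OMCD were lost with a pseudocount of 0.1 (adjusted p = 0.156 and 0.0669). The fall from PTS3 to DTL1 (2.26 ± 0.61, limma, adjusted p = 9.64e-04) rested on DTL1 mouse 5, listed at 0 beside 9.63 and 18.4 TPM, and was 0.98 (adjusted p = 0.0870) without it. DTL1 mouse 1, with the largest proximal marker sum of its group, had the 18.4 TPM of Hmox1 and also the most Slc39a14 (14.9 TPM, against 8.91 and 4.20). DTL1 mice 3 and 5 ran the other way. Mouse 5 had the larger proximal sum (2297 against 1049 TPM) but less Hmox1 (0 against 9.63 TPM) and less Slc39a14 (4.20 against 8.91 TPM). Macrophages also use Hmox1, and the sum of 9 macrophage markers was 9.82 to 27.9 TPM in PTS1 (8 of 9 at 1 TPM or more in some mouse, Adgre1 below it) and 60.5 to 146 TPM in CNT (9 of 9), where Hmox1 was highest. The sum was 145 to 273 TPM in CTAL (9 of 9), where Hmox1 was low, and largest in glomeruli (393 to 500 TPM, 9 of 9), where Hmox1 was at 37.0 to 41.1 TPM. The part of macrophages in Hmox1 was not tested.

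Slc40a1, the iron exporter ferroportin, was high in PTS1, low from PTS2 to ATL and high again from MTAL onward. It was listed at 0 in all 3 PTS3 mice, after 38.0, 44.9 and 56.1 TPM in PTS1 and 5.37, 5.41, 8.63, 9.06 and 15.2 TPM in PTS2. The descending limb stayed low, with 10.0, 11.1 and 16.7 TPM in DTL1, 3.45, 3.85 and 3.92 TPM in DTL2, and 0.910, 1.08 and 1.61 TPM in DTL3. ATL had 9.06, 9.85, 10.5 and 12.5 TPM. From MTAL onward every mouse had 37.0 TPM or more, and the highest group mean was that of IMCD (80.0, 101 and 139 TPM). PTS1 was not called against MTAL, CTAL, DCT, CNT, CCD or OMCD, and was called only below IMCD among the groups from MTAL onward (PTS1 minus IMCD -1.15 ± 0.26, limma, adjusted p = 3.29e-04).

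All 8 neighbouring pairs from glomerulus to MTAL were called for Slc40a1, and none of the 6 pairs beyond MTAL. PTS1 exceeded glomeruli (glomerulus minus PTS1 -3.10 ± 0.26, limma, adjusted p = 5.47e-14) and exceeded PTS2 by 2.39 ± 0.23 log2 units (adjusted p = 2.25e-11). ATL exceeded DTL3 (DTL3 minus ATL -2.39 ± 0.25, limma, adjusted p = 1.08e-10) and was below MTAL (ATL minus MTAL -2.19 ± 0.25, adjusted p = 5.01e-10). The differences against PTS3 were 3.16 ± 0.23 for PTS2 minus PTS3, -3.73 ± 0.26 for PTS3 minus DTL1 and -2.20 ± 0.26 for PTS3 minus DTL2 (limma, adjusted p = 3.17e-14, 2.15e-16 and 1.20e-09). These are no fold changes: their size depends on the pseudocount because PTS3 is listed at 0, and with a pseudocount of 5 the last was -0.79 and not called. The small step from DTL2 to DTL3 (1.08 ± 0.26, limma, adjusted p = 0.00217) was 0.49 with a pseudocount of 5 (adjusted p = 0.127) and 0.98 without DTL3 mouse 1.

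Set against the importer DMT1 within each mouse, ferroportin was the scarcer transcript in glomeruli, the straight proximal tubule and the thin limbs. Glomeruli had 3.80 to 5.40 TPM of Slc40a1 and 28.4 to 35.8 TPM of Slc11a2. The ratio of Slc40a1 to Slc11a2 in TPM was 0.154 ± 0.0676 in PTS2 (n = 5), 0 in PTS3 (n = 3) and 0.0424 ± 0.0107 in DTL3 (n = 3). It was 1.13 ± 0.265 in PTS1 and 4.52 ± 0.623 in IMCD (n = 3 each). PTS1 mouse 1 had less Slc40a1 than Slc11a2 (38.0 against 40.2 TPM), and PTS1 mice 2 and 3 had more. In every mouse from MTAL onward Slc40a1 was the more abundant of the pair, the lowest single ratio there being 1.11 in CCD.

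Cp, the copper-carrying ferroxidase, was highest in the descending thin limbs and glomeruli. DTL2 had 199, 200 and 229 TPM, DTL3 141, 215 and 227 TPM, and DTL1 54.6, 79.9 and 246 TPM. Glomeruli had 85.2, 94.0 and 130 TPM. No mouse of the other 11 groups exceeded 18.0 TPM, a value of the CCD, and PTS1 (0.510 to 1.29 TPM) and MTAL (0.150 to 0.505 TPM) were lowest. Descending limb and glomerulus are also the groups with the highest endothelial marker sums and many receptor genes, and the part of these in Cp was not tested.

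Cp was called between glomerulus and PTS1 (5.84 ± 0.55 higher in glomeruli, limma, adjusted p = 1.46e-12), between PTS3 and DTL1 (PTS3 minus DTL1 -3.34 ± 0.55, adjusted p = 7.88e-07) and between PTS3 and DTL2 (-4.33 ± 0.55, adjusted p = 6.01e-09). DTL3 exceeded ATL by 5.47 ± 0.52 log2 units (limma, adjusted p = 9.33e-12). The ATL mice split, since mice 2 and 3 had 0.290 and 0.310 TPM, but mice 4 and 6, with many receptor genes, had 11.4 and 15.6 TPM. The difference of ATL minus MTAL, 1.77 ± 0.52 (limma, adjusted p = 0.00461), was 0.04 with ATL mice 2 and 3 alone (adjusted p = 1.0), 1.13 without ATL mouse 6 (adjusted p = 0.0610), 0.96 with mouse number as a block (adjusted p = 0.129) and 0.90 with a pseudocount of 5.

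Below these groups, Cp had its next highest means in the connecting tubule and cortical collecting duct, and this level was not particular to them. PTS3 was not called against CNT (PTS3 minus CNT -0.55 ± 0.55, limma, adjusted p = 0.745) or CCD (-0.51 ± 0.49, adjusted p = 0.668). PTS3 and CCD overlapped, and ATL mice 4 and 6 had 11.4 and 15.6 TPM. CNT had 13.6, 13.9 and 14.9 TPM and CCD 8.82, 12.2, 12.8, 17.5 and 18.0 TPM. DCT upstream had 0.520, 0.875 and 1.85 TPM and OMCD downstream 1.01, 1.90, 2.18 and 4.90 TPM, and neither overlapped with CNT or CCD. DCT was below CNT (DCT minus CNT -2.90 ± 0.55, limma, adjusted p = 1.18e-04), and CCD exceeded OMCD by 2.18 ± 0.45 log2 units (adjusted p = 3.58e-04). The rise from PTS2 to PTS3 (8.75, 9.80 and 11.3 TPM) was called (PTS2 minus PTS3 -1.54 ± 0.49, limma, adjusted p = 0.0275), but not without PTS3 mouse 2 or 3 (adjusted p = 0.0928 and 0.130), without the PTS2 mouse whose column matched no title (0.0635) or with a pseudocount of 0.1 (0.0743), and with a pseudocount of 5 the difference was -0.94. Cp overlaps Hps3 on the opposite strand.

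Read pair by pair along the nephron, 49 of the 140 tests of these genes between neighbours were called, against 19.2% of such tests over all genes, 25 higher upstream and 24 higher downstream, and 30 of the 49 held in every alternative tried. Between glomerulus and PTS1, 4 of the 10 genes were called against 51.9% of all genes, with the median gene 0.96 log2 units higher in glomeruli. Between PTS1 and PTS2, 5 were called (Ftl1, Slc40a1 and Trf higher in PTS1, Slc39a8 and Slc39a14 in PTS2) against 9.57% of all genes. Between PTS2 and PTS3 it was again 5 (Slc11a2, Slc40a1 and Tfrc higher in PTS2, Cp and Slc39a14 in PTS3) against 4.70%. In both proximal steps the share was above the background. All such shares are descriptions, since the 10 genes were chosen with earlier results of these data known and the background includes many low genes.

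At the entry to the thin limbs calls were frequent among all genes. Between PTS3 and DTL1, 6 of the 10 genes were called against 65.5% of all genes, with the median gene at -1.33, and between PTS3 and DTL2, 7 against 40.0%, with the median gene at -0.71. Fth1, Hmox1 and Slc39a14 were higher in PTS3 in both. Between DTL2 and DTL3, 2 genes (Slc40a1 and Slc39a8) were called against 9.58%. Between DTL3 and ATL it was 4 (Cp, Ftl1 and Slc39a8 higher in DTL3, Slc40a1 in ATL) against 14.6%. Between ATL and MTAL it was 6 (Fth1, Ftl1, Slc39a14, Slc40a1 and Tfrc higher in MTAL, Cp in ATL) against 28.1%.

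From MTAL onward no neighbouring pair had more than 3 calls among the 10 genes. Between MTAL and CTAL only Slc39a8 was called (1 gene, background 3.15%). Between CTAL and DCT it was 2, Hmox1 and Tfrc, both higher in DCT (background 4.35%). Between DCT and CNT it was 3, with Fth1 and Tfrc higher in DCT and Cp in CNT (background 5.22%). Between CNT and CCD no gene was called (0 of 10 by limma, and 0 at an unadjusted p below 0.05, background 1.12%). Between CCD and OMCD, Cp, Hmox1 and Tfrc were called, all 3 higher in CCD (background 12.1%). Between OMCD and IMCD only Ftl1 was called (1 gene, background 18.6%).

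**Figure D3:**
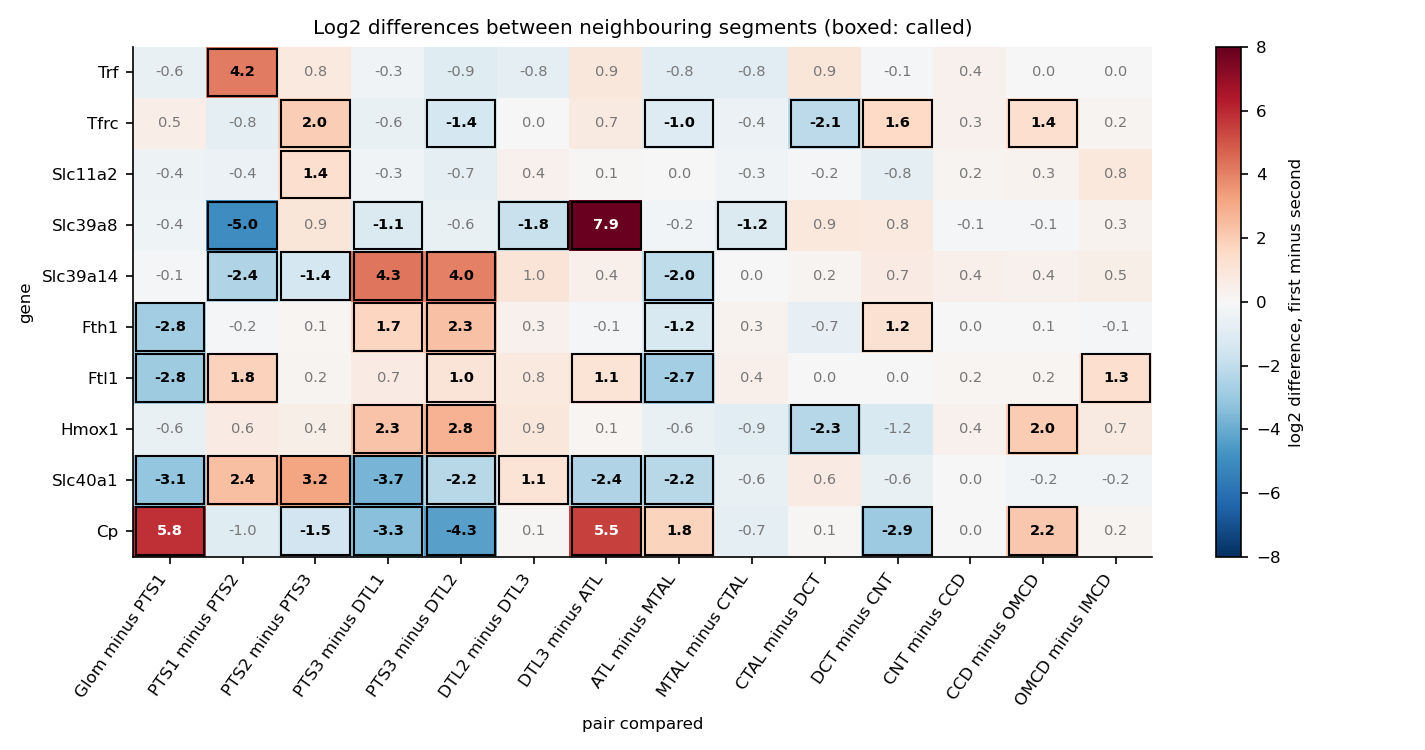
Log2 differences (limma on log2(TPM + 1), first group minus second) of the 10 genes (vertical axis) between 14 neighbouring pairs of groups (horizontal axis), from blue (lower in the first) to red (higher in the first). Boxed cells in bold are the 49 called differences, with an adjusted p below 0.05 and a size of at least 1. The largest is Slc39a8 between DTL3 and ATL at 7.90, and no cell is boxed between CNT and CCD.

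Averaged into zones, the proximal tubule (mean of PTS1, PTS2 and PTS3) and the distal nephron (mean of MTAL, CTAL, DCT and CNT) differed in 7 of the 10 genes, against 17.4% of all genes. Higher in the proximal tubule were Slc39a8 (4.03 ± 0.12 log2 units), Slc39a14 (1.89 ± 0.20), Fth1 (1.62 ± 0.06), Hmox1 (1.59 ± 0.31) and Ftl1 (1.23 ± 0.09), all by limma with adjusted p of 2.64e-05 or less. Lower were Slc40a1 (-3.07 ± 0.13, adjusted p = 2.16e-24) and Tfrc (-1.75 ± 0.20, adjusted p = 1.44e-10). These means join unlike segments in both zones. Hmox1 was called higher in each proximal segment than in MTAL and CTAL, but in none than in DCT or CNT, and CNT held its highest mean. Ftl1 was called higher in PTS1 than in each of the 4 distal segments, while PTS2 and PTS3 were not called against any of them. Fth1 was called in every such pair except PTS1 against DCT (0.99). In PTS1, Slc40a1 and Slc39a14 were not called against any of MTAL, CTAL, DCT and CNT, and Slc39a8 was not called against CTAL or DCT. Tfrc was not called for PTS1 against MTAL, nor for PTS2 against MTAL, CTAL or CNT. Cp (0.42 ± 0.28), Slc11a2 (0.03 ± 0.10) and Trf (0.08 ± 0.31) were not called between the zones, and the proximal mean of Trf joins the high PTS1 with the low PTS2 and PTS3. Both zones had few receptor genes (19 or fewer per mouse).

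Against the collecting duct (mean of CCD, OMCD and IMCD) 6 of the 10 genes were called, against 24.5% of all genes, with the median gene at -0.26. Slc39a8 (4.67 ± 0.13), Slc39a14 (3.28 ± 0.21), Fth1 (2.25 ± 0.06), Ftl1 (2.03 ± 0.09) and Hmox1 (1.25 ± 0.32) were higher in the proximal tubule, and Slc40a1 was lower (-3.58 ± 0.14), by limma with adjusted p of 9.51e-04 or less. Tfrc, called against the distal nephron, was not called here (-0.42 ± 0.20, limma, adjusted p = 0.0859), and the difference between these results was not tested. By segment, Hmox1 was not called between any proximal group and CCD, nor between PTS3 and OMCD. Ftl1 was not called for PTS2 or PTS3 against CCD, nor for PTS3 against OMCD. Slc40a1 in PTS1 was not called against CCD or OMCD, nor Slc39a14 in PTS1 against CCD. The Hmox1 call was lost with a pseudocount of 5, where the difference was 0.98. Both zone comparisons share the proximal mice.

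**Figure D4:**
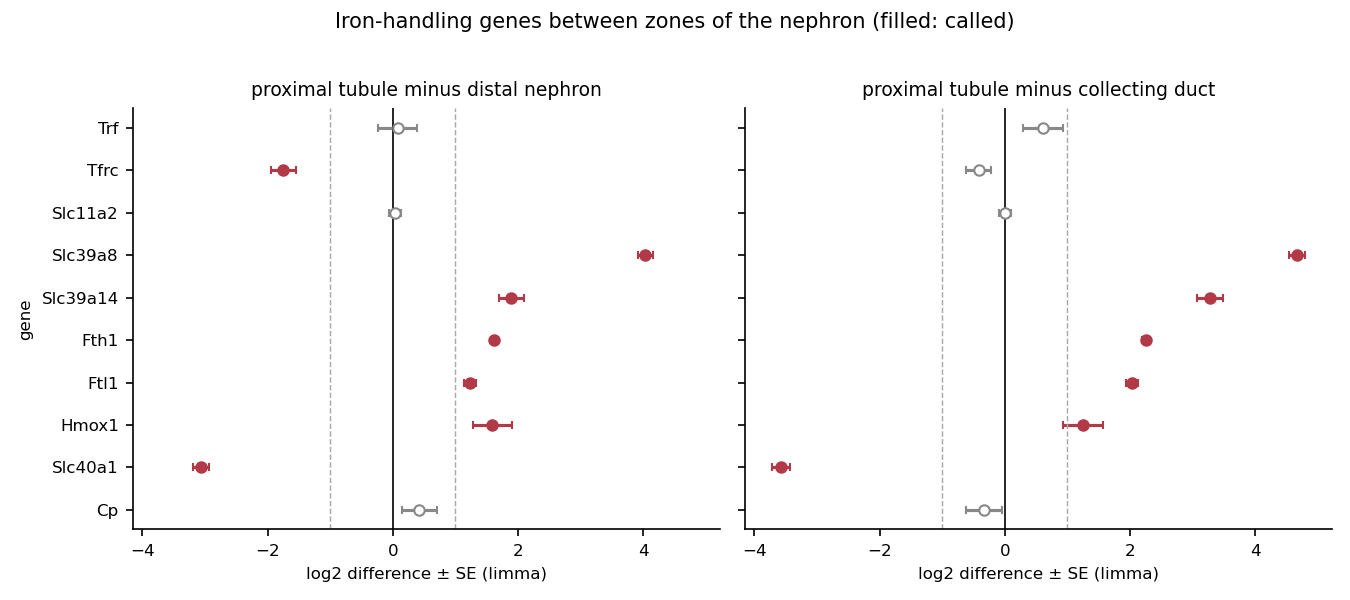
Log2 differences ± SE (limma, horizontal axis) of the 10 genes (vertical axis) for the proximal tubule minus the distal nephron (left) and minus the collecting duct (right). Filled points are called, open points are not, and dashed lines mark 1 log2 unit in each direction. Slc39a8 lies farthest to the right at 4.03 and 4.67, and Slc40a1 farthest to the left at -3.07 and -3.58.

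When the 15 groups were ordered by mean log2(TPM + 1) for each gene, 12 of the 140 steps between neighbours in that order were called by limma, against 1.91% of such steps over all genes. Ordering by the tested means makes these steps small by construction. Slc40a1 had 3 such steps, from PTS1 to DTL1, from DTL2 to DTL3 and from DTL3 to PTS3. Cp had 2, below the glomerulus and below PTS3. Slc39a8 had 2, below DTL3 and between PTS3 and PTS1, and Slc39a14 had 2, below PTS3 and below PTS2. Tfrc (below DCT), Ftl1 (below PTS1) and Trf (below glomerulus) had 1 each, and Slc11a2, Fth1 and Hmox1 had none. For Slc11a2 the 8 groups not separated from CNT included PTS2, CCD and OMCD, for Fth1 the groups not separated from PTS2 were PTS1 and PTS3, and for Cp those not separated from DTL2 were DTL1, DTL3 and glomerulus.

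Among themselves the 10 genes did not share a single pattern. Over the 15 group means of log2(TPM + 1), which share libraries and are given as a description, Pearson's r was 0.79 between Fth1 and Slc39a14 and 0.74 between Fth1 and Ftl1. It was -0.77 between Slc40a1 and Slc39a8 and -0.62 between Slc40a1 and Cp. Trf, which the receptor binds, had r = 0.19 with Tfrc. The carriers Slc39a8 and Slc39a14 had r = 0.39.

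The genes most alike in their 15 group means were found among 11983 genes with a mean of at least 10 TPM in some group. Slc39a8 was most like Aqp1, the water channel of the proximal tubule and descending limb (r = 0.930), then Galnt14 (0.915) and Ntn1 (0.914). Slc39a14 was most like Coq3, an enzyme of ubiquinone synthesis (0.955), Lypla1 (0.945) and Acadm, which oxidises medium-chain fatty acids (0.924). Fth1 was nearest to Tst (0.947), C8g (0.942) and Akr7a5 (0.940), and Ftl1 to Fggy (0.915), Gnpda1 (0.912) and Sord, sorbitol dehydrogenase (0.893). Tfrc was nearest to Eif3l, a subunit of a translation initiation factor (0.909), Klk1b5 (0.889) and Rsph10b (0.887), each with its highest mean in DCT. For Trf the nearest were Cpne4 (0.853), Smco3 (0.835) and Gatm, an enzyme of creatine synthesis (0.823).

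The remaining 4 genes had their own nearest patterns. Those of Slc11a2 were Hsd17b4, an enzyme of peroxisomal fatty acid oxidation (0.888), Plekhb2 (0.860) and Clcn5, an endosomal chloride-proton exchanger (0.852). Those of Slc40a1 were Blnk (0.839), Fam83f (0.838) and B4galt6 (0.835). Those of Hmox1 were Slc9a3r1, a scaffold of brush border transporters (0.833), Aldh2 (0.83) and Tbc1d1 (0.816). Those of Cp were Meis3 (0.916), Akap12 (0.905) and Mir7b (0.896), the last at 17.6 ± 30.5 TPM in glomeruli (n = 3), an SD above its mean.

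A wider list of 67 genes of iron, heme, iron-sulfur and zinc handling, 66 of them in the table and 62 tested, gave the surroundings. Of the 62, 12 were called higher and 10 lower in the proximal tubule than in the distal nephron, where 17.4% of all genes were called, with a median log2 difference of 0.04 beside 0.00 over all genes. Against the collecting duct, where 24.5% of all genes were called, 17 were higher and 8 lower, with a median of -0.17 beside -0.26. Of 13 uptake genes, 2 were higher and 3 lower in the proximal tubule than in the distal nephron, and 4 were higher and 2 lower than in the collecting duct. None of the 4 storage genes was called in either comparison, a number too small to read against those shares. All 62 passed the F-test, against 93.9% of all genes.

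Of the uptake genes, Lcn2, which encodes a carrier of siderophore-bound iron, had the highest level and the widest range, from 602 ± 233 TPM in OMCD (n = 4) to a listed 0 in PTS3 (n = 3), and was highest in OMCD by 1.84 ± 0.33 log2 units over IMCD (limma, adjusted p = 7.68e-04). Scara5, a ferritin receptor, was highest in DCT, where Tfrc also peaked, by 1.57 ± 0.23 over MTAL (limma, adjusted p = 1.31e-05), as were 0.210% of genes in DCT. Aco1, iron regulatory protein 1, was highest in PTS2 at 375 ± 28.7 TPM (n = 5), by 1.09 ± 0.18 over PTS3 (limma, adjusted p = 6.54e-05). Steap2, a metalloreductase, and Slc39a5, another ZIP carrier, were highest in PTS1 by 1.17 ± 0.20 and 1.23 ± 0.30 (limma, adjusted p = 8.86e-05 and 0.0131), as were 0.544% of genes in PTS1. The shares of all genes called highest in OMCD and in PTS2 are not given here.

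Of the export genes, Abcg2, a transporter that also carries porphyrins, reached 652 ± 81.7 TPM in PTS1 and 2.46 ± 1.28 TPM in IMCD (n = 3 each). Of the 5 export genes tested, Abcg2 (5.95 ± 0.29) and Flvcr2 (1.23 ± 0.15) were higher in the proximal tubule than in the distal nephron, and Flvcr1 (-3.47 ± 0.14) and Heph (-3.26 ± 0.15), a ferroxidase related to Cp, were lower (limma, adjusted p = 1.50e-22, 2.17e-09, 3.48e-25 and 1.43e-23). Mt1, a metallothionein that binds zinc, went from 0.573 ± 0.522 TPM in PTS3 to 2756 ± 982 TPM in MTAL (n = 3 each). Alas1, the first enzyme of heme synthesis, was at 342 ± 118 TPM in PTS2 and 331 ± 32.0 TPM in CTAL (n = 5 each) and lowest in IMCD at 41.0 ± 6.75 TPM (n = 3). Nfs1, a desulfurase of iron-sulfur cluster assembly, had its highest mean in PTS2 at 280 ± 15.6 TPM (n = 5). Its scaffold Iscu had its highest mean in IMCD at 598 ± 61.2 TPM (n = 3), close to 590 ± 34.0 TPM in PTS2.

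Among storage genes, Pcbp1, an iron chaperone for ferritin, was at 379 ± 14.5 TPM in DTL3 and 152 ± 6.52 TPM in DCT, and Pcbp2 at 102 ± 13.2 TPM in DTL1 (n = 3 each) and 27.8 ± 3.20 TPM in PTS2 (n = 5). Bmp6, a signal for hepcidin in the liver, was at 55.8 ± 1.62 TPM in glomeruli and 0.172 ± 0.0362 TPM in MTAL (n = 3 each). The heme genes Slc48a1, a heme transporter, and Lrp1, a receptor for hemopexin, had their highest means in glomeruli at 422 ± 25.2 and 69.1 ± 21.1 TPM (n = 3). For Slc48a1, PTS3 was close at 410 ± 12.2 TPM (n = 3). Hp, Lrp1, Steap3 and Steap4 were called highest in glomeruli, and Cd163, the hemoglobin-haptoglobin receptor of macrophages, in DTL1, both groups with high endothelial sums and many receptor genes. The share of all genes called highest in glomeruli or in DTL1 is not given here, so the number of these calls cannot be read against it. The sum of 9 macrophage markers was 133 to 245 TPM in DTL1, 393 to 500 TPM in glomeruli and 145 to 273 TPM in CTAL. The sum of 6 stromal and muscle markers was 443 to 637 TPM in glomeruli and 47.9 TPM or less elsewhere. The part of these cells in these calls was not tested.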

How the data were processed

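Per the labels' protocols, RNA of dissected tubules was made into cDNA with the SMARTer kit and into libraries with Nextera XT. The authors deposited 1 table of TPM. STAR 2.5.4a and RSEM 1.3.0 are named in the submitters' processing notes. The genome build and annotation behind the table are not given in the sources used here. All 93 sample columns were used. The name of 1 PTS2 column gives mouse 2 but a piece letter that no title has. It was taken as a PTS2 mouse of its own, since no other PTS2 column names mouse 2, and if that is wrong PTS2 holds 4 mice. It was left out of the fit with the replicate block. In addition, and 3 single-cell samples were not analysed here. TPM keep no read depth, so depth is unknown and no counting interval is given. The column sums were 999999 to 1000190.

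Pieces of a mouse were averaged as log2(TPM + 1), with a pseudocount of 1. This gave 53 mice in 15 groups, the number of mice the design text states. The median r between pieces of the same mouse was 0.981, between mice of a group 0.984 and between groups 0.869. Genes at 1 TPM or more in at least 3 mice (33793) were fitted with limma 3.58.1 (trend) in R 4.3.3, all groups sharing the spread, and adjusted by Benjamini-Hochberg over all genes within a contrast. The fit was first run on simulated data with independent normal noise and some genes raised in a single group. Those data do not copy the uneven background of these libraries, and the outcome is not given here. A call needs an adjusted p below 0.05 and a log2 difference of at least 1. The pseudocount shrinks the log2 differences of low genes, so their changes are understated. Means ± SD are over mice in TPM. Levels of different genes are compared in TPM, which are per transcript length. Tables and figures used Python 3.11.15, pandas 2.3.3 and matplotlib 3.10.9.

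The 10 genes and all lists were chosen with earlier results of these data known. Beyond the 10, the text names from each list the gene with the highest mean and the gene with the widest range, and the 3 genes most alike in their group means. Genes called in a single group, the other called export genes and Ftl1-ps1 were added after their values were seen. Alternatives were other pseudocounts, filters, scalings, averaging, a replicate block, protein-coding genes only, leaving out each mouse, and, chosen after seeing the data, ATL mice 2 and 3 alone.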

Additional observations from a re-analysis of the deposited data

Results flagged for a closer look

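Within groups of 4 or 5 mice, 3 of 50 combinations of gene and group held a mouse far from the rest, where chance gives about 1 in 20. Tfrc was at 23.1 TPM in OMCD mouse 3 and at 13.5 to 14.9 TPM in the other 3. Trf was at 8.18 TPM in OMCD mouse 1 and at 2.36 to 3.05 TPM in the others. Cp was at 2.43 TPM in CTAL mouse 1 and at 0.810 to 1.08 TPM in the others. No cause of these gaps was tested.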

How the results depend on the processing

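The number of genes among the 10 that differed among groups was 10 in every alternative. The count of calls between neighbours, 49, ran from 44 with a pseudocount of 5 to 54 with quantile normalization, and from 47 to 50 when 1 mouse was left out. With mouse number as a replicate block, and without the PTS2 mouse whose column matched no title, it was 47. The main fit did not pair mice by number. Deviations of same-numbered mice in different groups had a median r of 0.000 (-0.220 to 0.282), and those of different numbers 0.000 (-0.283 to 0.260). These values cannot tell whether equal numbers mean the same animal, since an animal's share could be hidden by the spread among so few mice. The zone counts stayed at 7 for the distal nephron and 5 to 7 (6 as reported) for the collecting duct. The number of genes highest in 1 group, 3, was 1 with a pseudocount of 0.1, where Ftl1 remained, and 2 to 4 when 1 mouse was left out. Of 65 single calls, 43 held in every alternative, and 1 reversed: PTS3 minus DTL1 of Slc39a8, -1.13, was 0.24 after rescaling by median ratios. The cause was not tested. Rescaling by median ratios kept 60 and quantile normalization 57 of the 65. Depth is unknown, and differences under 1 log2 unit are not called whatever their p.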
